A study of Capra hircus with 6 samples.

Results

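Mitochondrial ribosomal proteins are encoded in the nucleus, made in the cytosol and imported, and inside the organelle they join ribosomal RNA of mitochondrial origin. The small subunit, built mainly from MRPS proteins, decodes the messenger RNA, and the large subunit, built mainly from MRPL proteins, joins amino acids. The mammalian mitochondrial ribosome makes a few membrane subunits of the respiratory chain and of ATP synthase, which supply energy to tissues with heavy synthetic work such as the lactating mammary gland. Many of its proteins belong to families shared with bacteria, and the rest are specific to mitochondria.

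The genes were taken as every probe with a single platform symbol that starts with MRPL or MRPS and a digit. This gave 55 probes for 52 genes, 21 MRPS and 31 MRPL, out of 6535 genes with a symbol on the array, and the brightest probe stood for each gene. The members include MRPS30, whose protein sits in the large subunit in mammalian structures, and MRPS36, whose protein is known in mammals as a component of the oxoglutarate dehydrogenase complex. Of the 52 symbols, 51 were found among goat gene names, MRPS17 being the exception. No probe, promoter or protein sequence was used here, and no genome coordinates are given because the sources name no build.

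RNA came from the lactating mammary gland of 6 goats (Capra hircus), all deprived of food for 48 h. There were 3 goats of the Low CSN1S1 genotype and 3 of the High CSN1S1 genotype, CSN1S1 being the gene of the milk protein alpha-s1-casein. A Low and a High goat formed each of 3 pairs, A, B and C, and both goats of a pair shared 2 arrays, between which the dyes Cy3 and Cy5 were exchanged. The sources used here give neither age nor lactation stage and name no allele beyond Low and High, and fed goats were not analysed here. Every ratio below divides Low by High on the log2 scale, negative where the Low goat gave less signal, and the mean of both arrays stands for a pair (n = 3).

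The arrays carried 8379 probes, of which 6733 were bright enough to test, and the median signal over background was 2.67 to 6.00 per dye reading. As a check of the genotype labels, the ratio of CSN1S1 was -2.57 for pair A, -2.84 for B and -2.73 for C. Among the epithelial markers, the milk protein genes CSN1S2, CSN3, LALBA and PAEP were the brightest, with signals 167 to 248 times background. The remaining ones, KRT8, KRT18, KRT19, LTF and MFGE8, were far dimmer, from KRT8 at 3.29 up to MFGE8. The leukocyte marker ITGB2 (99.9) and the muscle markers MYH1 (34.1) and ACTA1 (26.8) were brighter than MFGE8. All other markers of leukocytes, adipocytes, muscle and matrix were dimmer than MFGE8. In this bulk tissue, fewer cells of a type and less RNA per cell cannot be told apart. No marker gene passed the threshold, an adjusted p of 0.05: 0 of 9 for epithelium, 0 of 4 for leukocytes, 0 of 2 for adipocytes, 0 of 3 for muscle and 0 of 1 for matrix. At an unadjusted p under 0.05 these counts were 5, 2, 1, 1 and 1, where 11.2% of all tested genes had such a p. The antimicrobial milk protein gene LTF was at -0.67, below 0 on 6 of 6 arrays, LALBA at 0.55, above 0 on 6 of 6, PAEP at -0.44, below 0 on 5 of 6, and the matrix gene SPARC at -0.13, below 0 on 6 of 6 (adjusted p from 0.170 to 0.275 for these 4 genes). Of these 4, SPARC was dim, at 1.79 times background, with 3 of 6 readings of Low and 4 of 6 of High goats above background. The part of these markers in the results below was not tested.

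Of the 52 genes, 41 passed the filter on dim signals and 11 did not. Among the 41, signals lay between 1.75 and 110 times background, 27 stood above background in all 12 dye readings, and no member probe was saturated. The 11 dim members were MRPS5, MRPS7, MRPS33, MRPL13, MRPL19, MRPL22, MRPL34, MRPL45, MRPL50, MRPL51 and MRPL52. For 4 of them, MRPS5, MRPL34, MRPL51 and MRPL52, no reading stood above background, so no direction is read from their ratios.

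One gene of the mitochondrial ribosome fell. MRPS6, which encodes a small-subunit protein of the bacterial S6 family, was lower in the Low goats, and the other 40 tested members did not pass the threshold in either direction. Over all tested genes 0.47% passed, 0.432% as lower and 0.0376% as higher (0.446%, 0.416% and 0.0297% of all tested probes), so the count of 1 among 41 rests on MRPS6 alone. The median log2 ratio of the 41 genes was -0.0028, beside 0.0033 over all 5321 tested genes. The interquartile range was -0.031 to 0.029 in the members and -0.036 to 0.041 over all tested genes.

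**Figure D1:**
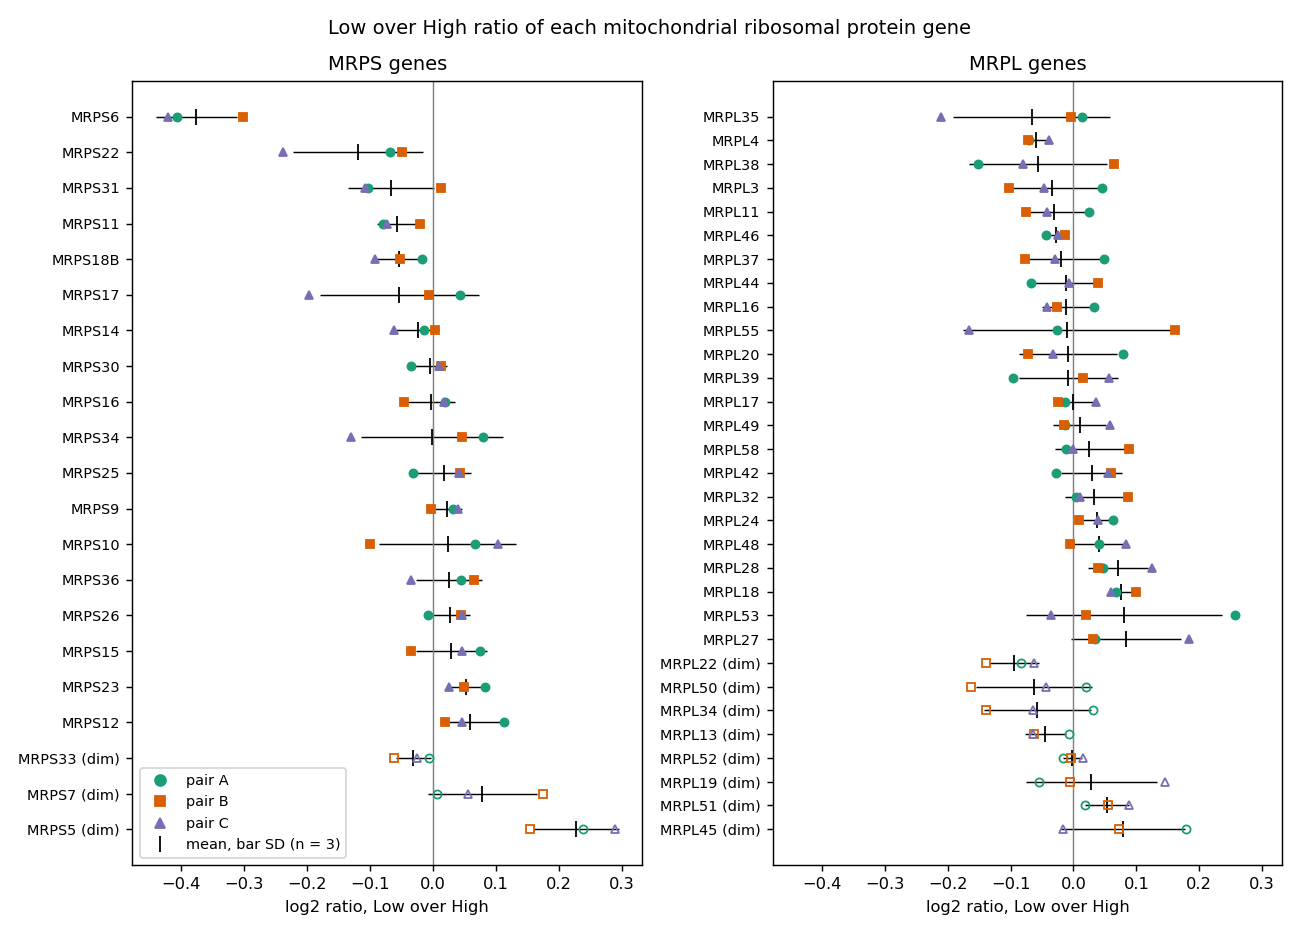
Log2 ratio of Low over High (x axis) for each of the 52 genes (y axis), MRPS on the left and MRPL on the right. Coloured points are the 3 pairs of goats, the black mark and bar are their mean and SD, and open points mark the 11 dim genes. MRPS6 lies apart at -0.38, while the other 40 tested genes lie between -0.12 and 0.083.

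On the 6 arrays MRPS6 read -0.38 and -0.43 in pair A, -0.26 and -0.34 in pair B, and -0.22 and -0.62 in pair C, with the Low goat in Cy5 given first. All 6 were below 0, and within pair C the arrays differed more than between pairs. Pair means were -0.41, -0.30 and -0.42, giving a mean of -0.38 ± 0.06 (SD, n = 3). This is a 1.30-fold lower signal (limma adjusted p = 0.00242, 95% interval of the log2 ratio -0.47 to -0.29). Being below 0 on all 6 arrays was seen in 1.84% of all tested genes.

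The probe of MRPS6 was printed as 2 spots, and each was read separately. Over the 12 spot ratios the lowest was -0.68 and the highest -0.17, so every spot on every array was lower in the Low goat. Spot signals before background correction were 174 to 327 in the Low goats and 221 to 524 in the High goats. Local background was 40.8 to 86.8 and 42.3 to 100.5 respectively, and no spot carried a quality flag.

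Single-channel levels show the same gene goat by goat. The normalized log2 intensity of MRPS6 was 8.05, 7.75 and 8.01 in the Low goats of pairs A, B and C, and 8.45, 8.05 and 8.43 in the High goats. All 3 Low goats lay under all 3 High goats, but the highest Low goat (pair A) and the lowest High goat (pair B) differed by only 0.0048. That separation was seen in 0.733% of all tested genes and in no other member, and its opposite, seen in 0.507%, in none. MRPS6 was also the only tested member whose genotype difference, 0.38, exceeded the range of its mean level over the 3 pairs, 0.35, and the share with this property over all tested genes was 1.79%.

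**Figure D2:**
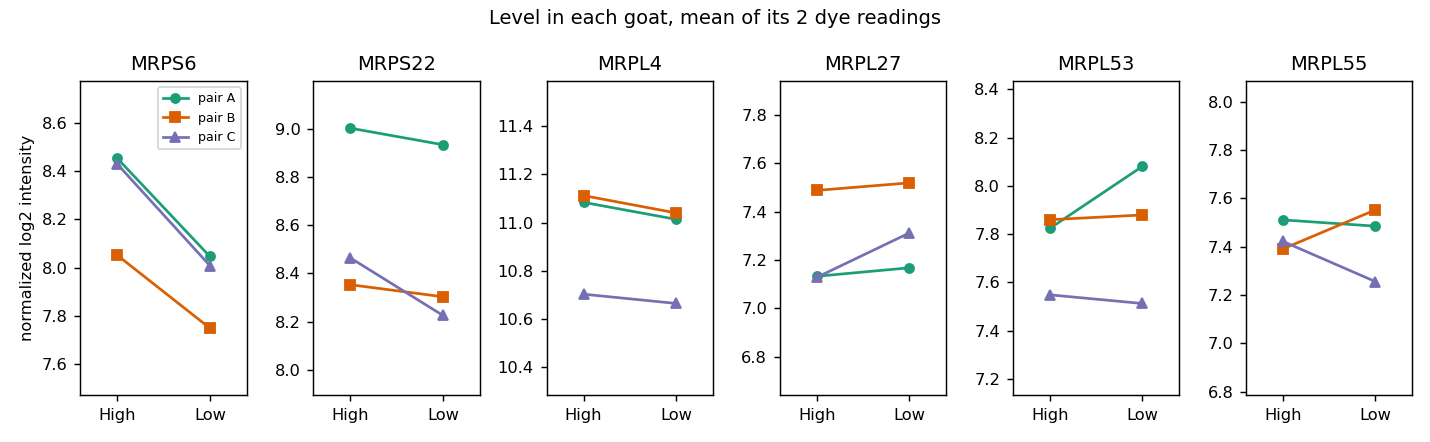
Normalized log2 intensity (y axis) of 6 genes in each goat, with the High goat on the left and the Low goat on the right of each panel, and lines joining the goats of a pair. Every panel spans the same range on the log2 scale, each point is the mean of 2 dye readings, and MRPS6 drops by 0.30 to 0.42 from High to Low in the 3 pairs, against at most 0.24 in the other genes shown.

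The call of MRPS6 rested on the pairing and on both arrays of each pair. With the goats compared unpaired the adjusted p was 0.99999 at the same difference, and leaving out any 1 of the 6 arrays gave an adjusted p from 0.0650 to 0.266, with ratios from -0.44 to -0.31. Leaving out a whole pair kept the call, with adjusted p of 0.00519 without A, 0.0139 without B and 0.00383 without C.

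**Figure D3:**
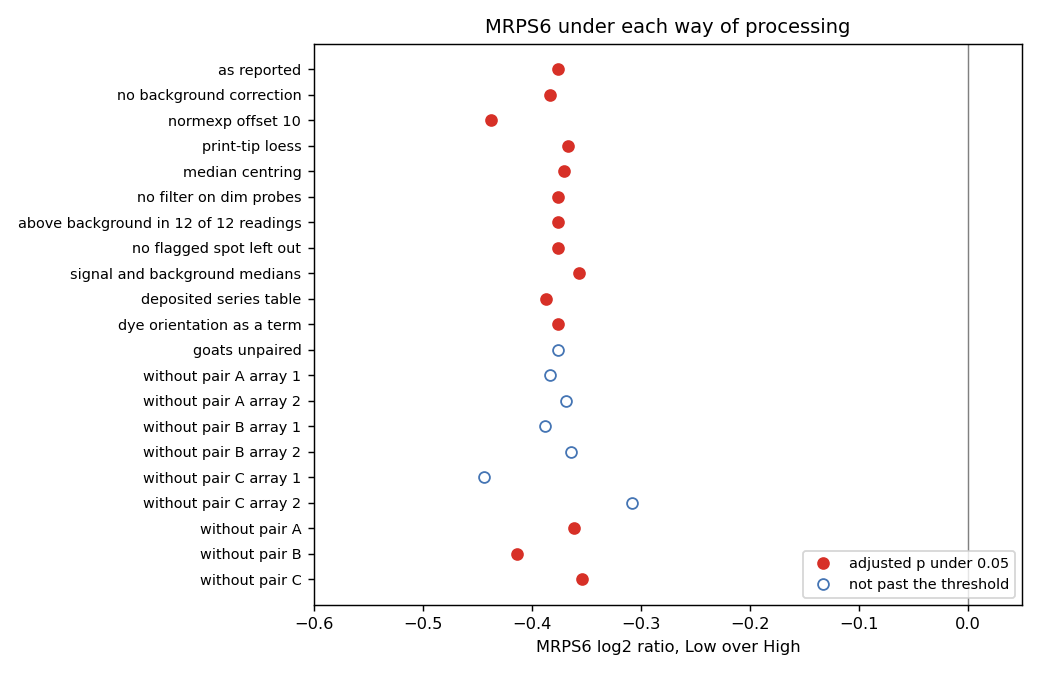
Log2 ratio of MRPS6 (x axis) under each way of processing (y axis), with filled points where the adjusted p was under 0.05 and open points where it was not. All points are below 0, and the open ones are the 6 settings that leave out a single array and the unpaired comparison.

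The other small-subunit genes stayed near 0. Of all 18 tested MRPS genes, MRPS6 included, 10 were below 0 and 8 above, with a median of -0.0019. MRPS22, a mitochondria-specific protein whose human gene is mutated in combined oxidative phosphorylation deficiency, was below 0 on all 6 arrays. Its pair values were -0.07, -0.05 and -0.24, with a mean of -0.12 ± 0.10 (SD, n = 3; adjusted p = 0.388). Most of its distance from 0 came from 1 array of pair C, that with Cy3 on the Low goat, at -0.40, while the other 5 arrays lay between -0.08 and -0.02. The 3 Low goats of MRPS22 lay at 8.93, 8.30 and 8.23 and the High goats at 9.002, 8.35 and 8.46, so the genotypes overlapped widely. MRPS22 and MRPS6 were the only members with an unadjusted p under 0.05, 2 of 41, where 11.2% of all tested genes had one.

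Among the MRPS genes of families shared with bacteria, MRPS12, part of the decoding centre, gave 0.11, 0.02 and 0.05 in the pairs. MRPS17 gave 0.04, -0.006 and -0.20, with an SD of 0.13. MRPS14 gave -0.01, 0.004 and -0.06. MRPS11 and MRPS18B were below 0 in all 3 pairs, with means of -0.06 and -0.05, and neither passed. Being below 0 in all pairs was seen in 6 of 41 members and in 17.1% of all tested genes, and above 0 in 7 of 41 members and in 18.6%. The mitochondria-specific MRPS31 gave -0.10, 0.01 and -0.11, and MRPS34 gave 0.08, 0.05 and -0.13, so their pairs disagreed in sign. MRPS30 (-0.0044) and MRPS36 (0.025), the members whose place in the small subunit is doubtful, differed little from 0. MRPS30 was the dimmest tested member, at 1.75 times background. Only 2 of 6 readings of Low goats and 4 of 6 of High goats stood above background, so its ratio says little.

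The large-subunit genes likewise gave no call. Of the 23 tested MRPL genes, 13 were below 0 and 10 above, with a median of -0.0080, and an interquartile range of -0.023 to 0.035. MRPL4, whose bacterial relative lines the exit tunnel for the new protein chain, was below 0 on all 6 arrays. Its pair means, -0.07, -0.07 and -0.04, had the small SD of 0.02, and its mean of -0.06 had an adjusted p of 0.541. Its 6 goats overlapped, at 11.01, 11.04 and 10.67 in Low and 11.08, 11.11 and 10.70 in High goats. None of the 41 tested members was above 0 on all 6 arrays, which 1.09% of all tested genes were. Among the 11 dim members MRPS7 and MRPL51 were, but no reading of MRPL51 stood above background, so its direction is not read.

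MRPL27, related to a bacterial protein at the peptidyl transferase centre, had the highest mean of the tested members. Its pair values were 0.04, 0.03 and 0.18, with a mean of 0.08 ± 0.09 (SD, n = 3; adjusted p = 0.482), and 5 of 6 arrays were above 0. The probe was dim: 5 of its 6 readings of Low goats and 4 of 6 of High goats stood above background. Its levels were 7.17, 7.52 and 7.31 in Low and 7.13, 7.49 and 7.13 in High goats, which overlapped. MRPL18 was at 0.08 ± 0.02 with 0.07, 0.10 and 0.06 in the pairs, yet with Cy3 on the Low goat it was below 0 on all 3 arrays.

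The pairs of goats disagreed most for MRPL55, MRPL53, MRPS17 and MRPL35. MRPL55, a mitochondria-specific protein, had an SD of 0.16 and gave -0.03, 0.16 and -0.17. MRPL53, also mitochondria-specific, gave 0.26, 0.02 and -0.04, so its mean of 0.08 came from pair A. MRPL35 gave 0.01, -0.004 and -0.21, so its mean of -0.07 came from pair C, as did that of MRPS17. The median SD between pairs was 0.049 over the members and 0.061 over all tested genes.

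Members named for a known role, as well as MRPL18, MRPS9, MRPS11, MRPS18B, MRPS31 and MRPS34, were chosen after their values were seen. MRPL58, a peptidyl-tRNA hydrolase that releases stalled chains, was at 0.03 and MRPL44, which has a ribonuclease fold, at -0.01. MRPL11, at the base of the stalk where translation factors bind, was at -0.03. None of these passed.

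How large a difference could have been missed, on the scale of these processed ratios, follows from the intervals. The standard error of a log2 ratio was 0.038 at the median over the members. Over the 40 members that did not pass, the 95% intervals reached from -0.22 (MRPS22) to 0.20 (MRPL53) at their outer ends. The number of pairs, 3, limits this precision, and intervals rest on a spread pooled over all tested probes.

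Genes of families shared with bacteria and mitochondria-specific genes were set side by side. The 22 tested shared genes had a median of -0.0059 and the 19 tested specific genes a median of -0.00095. The medians moved with the pair: the shared genes were at 0.032 (A), -0.022 (B) and -0.012 (C), and the specific genes at -0.026, 0.039 and -0.0072. In pair A 6 of 22 shared and 13 of 19 specific genes were below 0, and in pair B 15 of 22 and 5 of 19, so the order of the groups turned over between pairs A and B. No test of this difference was made. The median dye effect, defined below, was 0.093 in the shared and 0.021 in the specific genes, and its part in these medians was not tested.

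The dye had more weight than the genotype on a single array. The dye effect is the difference, divided by 2, between the arrays with the Low goat in Cy5 and in Cy3, and it cancels in the pair mean where it is equal on both. It was larger in size than the mean ratio in 29 of the 41 members and in 3954 of all 5321 tested genes. MRPS14 had the largest, 0.26, reading 0.18, 0.34 and 0.20 with the Low goat in Cy5 and -0.21, -0.33 and -0.33 with it in Cy3. MRPS12 followed at 0.25, MRPL3, near the peptidyl transferase centre, at 0.21 and MRPL28 at -0.20. In MRPS6 it was 0.09, and both orientations were below 0 in every pair.

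**Figure D4:**
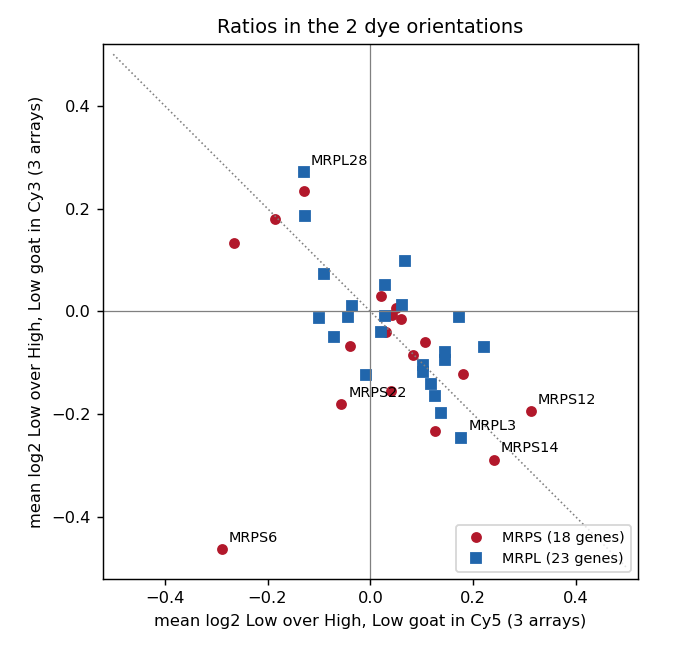
Mean log2 ratio of each tested gene over the 3 arrays with the Low goat in Cy5 (x axis) and the 3 arrays with it in Cy3 (y axis), MRPS in red circles and MRPL in blue squares. Genes on the dotted line have equal and opposite ratios in the orientations, as a pure dye effect gives, and MRPS6 lies far below it on the lower left.

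Across the 41 members the 2 arrays of a pair correlated at r = -0.22 (A), -0.59 (B) and -0.14 (C), and without MRPS6 at -0.49, -0.74 and -0.31. Without MRPS6 the pair means hardly followed each other, with r = -0.083 for A with B, 0.21 for A with C and 0.049 for B with C over 40 genes. With MRPS6 these were 0.39, 0.52 and 0.40. The dye effects did follow each other, at r = 0.77, 0.65 and 0.60 over the 40 genes. Over all 5321 tested genes, called ones included, the 2 arrays of a pair correlated at r = -0.52, -0.53 and -0.11. There the pair means gave r = 0.38, 0.38 and 0.44 and the dye effects 0.84, 0.72 and 0.71. Rank correlations of the pair means were 0.094, 0.18 and 0.30 over all tested genes, and -0.049, 0.27 and 0.16 over the 40 genes. These describe genes measured on the same arrays, which are not independent replicates.

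For 3 genes another, dimmer probe was on the array. The probes of MRPS10 gave 0.023 and 0.015, with an SD between pairs of 0.11 and 0.01. Those of MRPS15 gave 0.029 and -0.099, and for the dimmer one 2 of 6 readings of Low and 4 of 6 of High goats stood above background. Those of MRPL42 gave 0.029 and -0.083, the dimmer one above background in 1 of 12 readings and not tested. No probe of the 3 genes passed, and the signs disagreed for MRPS15 and MRPL42.

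Of the 11 dim members, 7 stood above background in 2 to 5 of 12 readings, and their means ran from -0.095 (MRPL22) to 0.079 (MRPS7). MRPS5, never above background, gave the highest value of all 52 genes, 0.23, and also the largest dye effect, -0.51, with -0.14, -0.27 and -0.42 where Cy5 labelled the Low goat and 0.61, 0.58 and 1.003 on the others. Its 3 pair means, 0.24, 0.15 and 0.29, are ratios of signals that were not well above background.

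Mitochondrial ribosomes also need proteins with other names, factors, synthetases and assembly proteins, and these were read from the same fit. Of 5 further genes of the ribosome and its membrane partner on the array, 3 were tested and 0 passed. DAP3, a GTP-binding small-subunit protein, was at 0.03. OXA1L, the insertase that takes up the new chains, was at -0.18 with 0.005, -0.29 and -0.25 in the pairs (adjusted p = 0.321). The OXA1L probe was dim: 3 of 6 readings of Low goats and 5 of 6 of High goats stood above background. Translation factors had 0 of 3 past the threshold, with the elongation factor TUFM at 0.04 and the release factor MTRF1 at -0.04. Mitochondrial tRNA synthetases had 0 of 6, with AARS2 at -0.08 and PARS2 at 0.08.

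Assembly and rRNA modification genes had 0 of 13 past the threshold, with 10 above 0 and 3 below and a median of 0.024. MRM1, an rRNA methyltransferase, gave 0.07, 0.09 and 0.13 in the pairs, a mean of 0.10 (adjusted p = 0.388), and MTERF4, which acts in ribosome assembly, was at 0.08. Among 10 genes of mitochondrial DNA expression and RNA handling, LRPPRC, which stabilizes mitochondrial messenger RNA, fell. It gave -0.92, -0.63 and -0.46 in the pairs, a mean of -0.67 ± 0.23 (SD, n = 3; adjusted p = 0.00242), a 1.595-fold lower signal. The other 9 did not pass, with HSD17B10, a subunit of mitochondrial RNase P, at -0.06 and FASTK at -0.05. Regulators of biogenesis had 0 of 5, with the coactivators PPARGC1A at 0.14 and PPRC1 at 0.07, and import genes 0 of 8, with the chaperone HSPA9 at 0.05 and its cofactor GRPEL1 at -0.04. At an unadjusted p under 0.05 there was 1 gene each in 3 lists. These were the further genes of the ribosome and its membrane partner (OXA1L, the partner), the assembly genes and the regulators of biogenesis. There were 0 among the factors, synthetases and import genes, and the share over all tested genes was 11.2%.

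**Figure D5:**
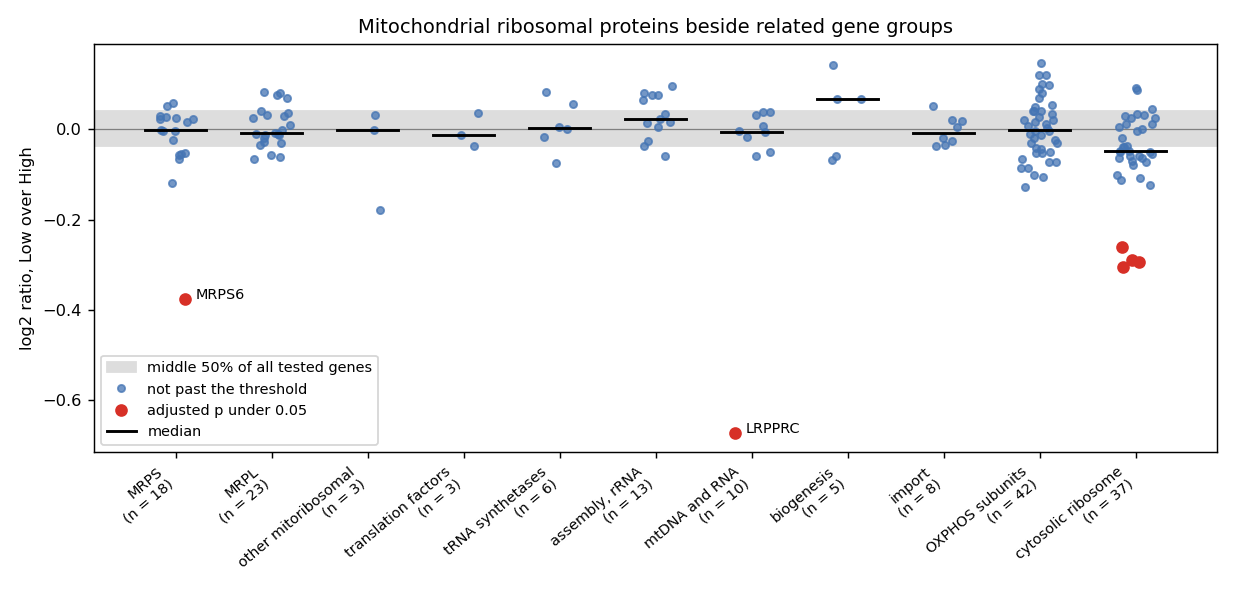
Log2 ratio of Low over High (y axis) of single tested genes in the MRPS and MRPL groups and in related groups (x axis, with the number of genes). Black bars are medians, red points have an adjusted p under 0.05, and the grey band is the interquartile range of all tested genes. MRPS6, LRPPRC and 4 cytosolic ribosomal protein genes are red.

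The cytosolic ribosome and the respiratory chain are the nearest relatives by function. Of 37 tested cytosolic ribosomal protein genes, 4 passed as lower and 25 were below 0, with a median of -0.048. Of 42 tested nuclear genes of oxidative phosphorylation subunits, 0 passed, 6 had an unadjusted p under 0.05 and 21 were below 0, with a median of -0.00032. The mitochondrial group had 1 of 41 and a median of -0.0028. Over all tested genes 0.432% passed as lower, 11.2% had an unadjusted p under 0.05 and 2556 of 5321 were below 0. No test compared the groups. The 4 cytosolic genes were RPSA, RPL4, RPL22 and RPLP2, and RPL22 and RPLP2 were below 0 on all 6 arrays, as MRPS6 was, and RPSA and RPL4 on 4 of 6.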

How the data were processed

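Each array held a Low and a High goat, and the files give, per spot and dye, the signal and background intensity deposited by the authors on a linear scale, read with ImaGene 6.0 per the labels. The authors' deposited table of log2 ratios served as an alternative, while the sources used here do not give its normalization. It followed the scanner ratios within intensity bins at a correlation of at least 0.994, which also ties its row numbers to spots and thereby to the platform's gene symbols.

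Normexp (offset 50) removed background in limma 3.58.1 under R 4.3.3, each array was normalized by loess with control and left-out spots at no weight, and 26 to 67 manually flagged or poor spots per array were left out. Values are means over a probe's spots, then over the arrays of a pair. Probes with a signal 2 background SDs over background in at least 6 of 12 readings and a value on all arrays were tested: the moderated statistic of limma on the 3 pair values, null value 0, Benjamini-Hochberg over 6733 probes, threshold 0.05. The spread pooled over probes weighs 7.47 degrees of freedom, beside 2 of each single probe. Goat levels are single channels after Aquantile. Array numbers 1 and 2 mark the dye orientation per the labels, so the pairing comes from the goats sharing arrays. P-values rest on the spread of the Low over High ratio between the 3 pairs, combined with the spread pooled over probes. They do not measure the spread between single goats.

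The members, lists and rules were chosen with earlier results of these data known. Named were MRPS6, MRPL27, members past the threshold, those with 1 sign on 6 arrays, the 4 with the largest SD, the 4 with the largest dye effect, those with several probes and those not tested, and per related list the genes past the threshold and the 2 of smallest p. Shared families were taken as MRPS up to number 21 and MRPL up to 36. Only the averaging over a pair and the moderated fit were run on simulated ratios with known differences. Background correction, normalization and the filter on dim signals were not simulated.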

Additional observations from a re-analysis of the deposited data

Results flagged for a closer look

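In 5 of 41 members both arrays of one pair of goats were above 0 and both arrays of another pair below 0, a property of 10.8% of all tested genes, and the differences between the pairs were not tested. The log2 ratio differed by 0.33 between pairs B and C in MRPL55, by 0.29 between A and C in MRPL53, by 0.22 between B and A in MRPL38, by 0.17 between A and B in MRPS10 and by 0.054 between C and A in MRPS26. Each pair is a single Low and a single High goat, so these are differences between goats as much as between genotypes. No group held the 4 samples that a search for single outlying samples needs.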

How the results depend on the processing

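MRPS6 was below 0 in 21 of 21 alternatives. These include the setting with the other probe of genes with several, which could not change MRPS6, a gene with 1 probe. MRPS6 kept its call in 14 of the 21, that setting among them. The 7 that lost it were the unpaired goats (-0.376, adjusted p = 0.99999, with 0 members and 0 probes called, 0 members and 11 probes at an unadjusted p under 0.05) and the 6 that leave out 1 array, which leave a pair's dye effect uncancelled. Leaving out an array or a pair gave MRPS6 from -0.444 to -0.309, 0 to 1 called members, a member median from -0.0325 to 0.0277, and 3 to 66 called probes. Any called member was MRPS6 in each setting.

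The 30 called probes became 19 with offset 10, 19 with signal and background medians, 18 with the deposited table, and 59 with the replicate block, the dye orientation as a term. With that block MRPS6 had an adjusted p of 2.47e-04, and no member's call changed. The correlation estimated for the block was -0.078, so that fit weighed both arrays of a pair nearly as independent replicates. They come from the same goats, so its p-values and its count of called probes are not read as stronger evidence. The cause of the changes in the number of called probes was not tested. The member median was 0.0083 with median centring, and 0.0175 over the 27 genes above background in 12 of 12 readings, where fewer genes were tested, so no direction is read from it. Of 287 values of the other named members under the alternatives, 255 moved by less than the SD between pairs, 32 moved by more, and 0 passed. Dim signal limits 11 of the 52 genes, which have no test.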

Other observations

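The goats' levels of mitochondrial ribosomal genes were set beside those of the respiratory chain, with no test. As the median over genes of the deviation from each gene's mean over the 6 goats, the 41 members lay between -0.045 (Low goat of pair C) and 0.024 (High goat of pair C) on the log2 scale. The 42 oxidative phosphorylation genes were at 0.14 and 0.13 in the Low and High goats of pair A and at -0.17 and -0.19 in those of pair B. All tested genes together lay between -0.017 and -0.0030. Goats of a pair share arrays, so differences between pairs cannot be told apart from differences between arrays.

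Single members ranged more widely. MRPL11 was at 13.04 and 13.08 in the goats of pair C and between 11.87 and 11.99 in the other 4 goats, a range of 1.21. MRPS36 was at 7.34 and 7.29 in pair A and between 7.92 and 8.22 in the others. MRPS9 spanned only 0.061 over the 6 goats, the smallest range of the tested members. In 40 of 41 tested members the range of the mean level over the pairs was larger than the genotype difference, MRPS6 being the exception. This is a property of most genes on the array, as the genotype difference was the larger in only 1.79% of all tested genes.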
